A study of Homo sapiens with 8 samples.

Results

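The Wnt pathway genes described here are 55 genes chosen by name. Genes whose symbol is WNT or FZD followed by a digit were taken where a probe set of the array carries that symbol alone. FZD8 and WNT3, which are only on probe sets with several symbols, were left out. The rest are a list of antagonists, receptors, relay proteins and transcription factors. A probe set that carries the gene's symbol alone was found for 50 of the 55, out of 11963 genes measured in all. SFRP2, AXIN2, TCF7, NKD2 and PORCN were not analysed here.

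Gene expression was measured on 8 Affymetrix arrays. The cells were A375P, a line from a human melanoma, into which hairpins had been brought stably with lentivirus. Each line expressed 1 of 4 short hairpin RNAs, with 2 arrays per hairpin. The controls were shGFP, and shScr, whose sample titles read shRNA-control. Hairpins 65 and 66 target PGC1α, the coactivator of mitochondrial gene transcription that PPARGC1A encodes. All lines, controls included, went through 48 h of puromycin selection, and RNA was collected after another 48 h. Nothing in the labels tells whether the 2 arrays with the same hairpin are separate cultures, so p-values here reflect spread among these samples alone, which may be technical. The number of arrays limits the precision. Tests of 4 against 4 arrays take arrays as the unit, although an arm holds only 2 hairpins with 2 arrays each.

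Wnt proteins are secreted lipid-modified ligands that bind Frizzled receptors (FZD genes) with the co-receptors LRP5 and LRP6. In the canonical branch this stops a complex of AXIN1, APC and GSK3B from marking β-catenin (CTNNB1) for destruction, and β-catenin then activates genes bound by LEF1 and the TCF factors, which TLE corepressors otherwise keep silent. Dickkopf proteins (DKK genes), Frizzled-like decoys (SFRP genes and FRZB) and WIF1 act outside the cell as antagonists. In melanoma, WNT5A and the receptors ROR1, ROR2 and RYK stand for a β-catenin-independent branch that is linked to motility.

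PPARGC1A had signals of 559.7 and 543 with shGFP, 570.2 and 551 with shScr, 126 and 144 with hairpin 65, and 114 and 115 with hairpin 66. The arms did not overlap, and the level was 4.48-fold lower with the PGC1α hairpins (two-sided exact permutation test, p = 0.0286, the lowest possible with 4 arrays in each arm). In such bulk samples, fewer cells of a type and less RNA per cell cannot be told apart. The melanocyte regulators MITF and SOX10 were among the bright probe sets, with mean control signals of 7420 and 3652. With the PGC1α hairpins MITF fell 1.51-fold, to a mean of 4918 (adjusted p = 5.10e-05). SOX10 rose 1.12-fold, to 4100 (adjusted p = 0.0465). Summed over 10 measured melanocyte genes, signal ran from 19992 to 21645 in the controls and from 15856 to 17175 in the knockdown. There 1 of these genes rose and 4 fell, where 11.6% of all genes rose and 10.7% fell. The sums overlapped between the arms for fibroblast genes (10 genes, 1371 to 2176 against 1801 to 1924) and blood genes (6 genes, 225 to 249 against 226 to 247). Of the fibroblast genes 1 rose, PDGFRB (1.44-fold, adjusted p = 0.00743), and 0 fell. Between the controls 3 of them were higher in shGFP, against 4.4% of all genes. For epithelial genes the sums were 2955 to 3506 in the controls and 3535 to 3976 in the knockdown. Most of the epithelial sum came from KRT18, which rose (mean 2619 to 3322), while ESRP1 fell 2.82-fold (adjusted p = 5.05e-05) and the other 8 did not pass, with a median log2 change of -0.05 over the 10. The part of the melanocyte and epithelial differences in the Wnt results was not tested. No gene of these lists had a signal of 0. The log2 signal of ACTB at its 3′ end minus that at its 5′ end, a measure of RNA quality, was 1.97 to 2.34 in the controls and 2.41 to 2.65 in the knockdown, and did not overlap between the arms. The same measure for GAPDH averaged 0.17 and 0.18.

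With the PGC1α hairpins, 13 of the 50 Wnt genes rose and 3 fell, 16 in all, at an adjusted p under 0.05 in a limma fit of 4 against 4 arrays. Over all 11963 genes, 22.2% were called in that comparison, 11.6% higher and 10.7% lower. The median log2 change was 0.04 over the Wnt genes and -0.00455 over all genes. SFRP1 had the largest log2 change among the 50 (2.78), followed by DKK1 (-2.41), FZD1 (1.37) and DKK3 (1.12), and 4 of 9 Frizzled receptors and 3 of 7 measured TCF and TLE genes rose. All 16 called genes had arms that did not overlap, as did 4 others, so that 15 of the 50 Wnt genes lay wholly higher and 5 wholly lower, against 13.9% and 13.6% of all genes (27.5% together). With the ACTB difference as a covariate, 529 of all 11963 genes were called. Of the 16 calls 4 held, those of SFRP1, DKK3, LEF1 and TCF7L1, with log2 changes of 2.73, 1.08, 0.77 and 0.52. The genes that lost their calls kept their direction. Their log2 changes were 0.45 for GSK3B, 0.46 for LRP6, 0.41 for FZD2, 0.37 for TCF7L2, 0.47 for WNT5A and 0.46 for FZD7. They were -0.59 for TLE4, -0.39 for FZD5, 0.67 for WIF1, 1.10 for FZD1, 0.22 for FZD9 and -1.58 for DKK1. The ACTB difference did not overlap between the arms, so the covariate and the hairpins are hard to tell apart in this fit.

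**Figure D1:**
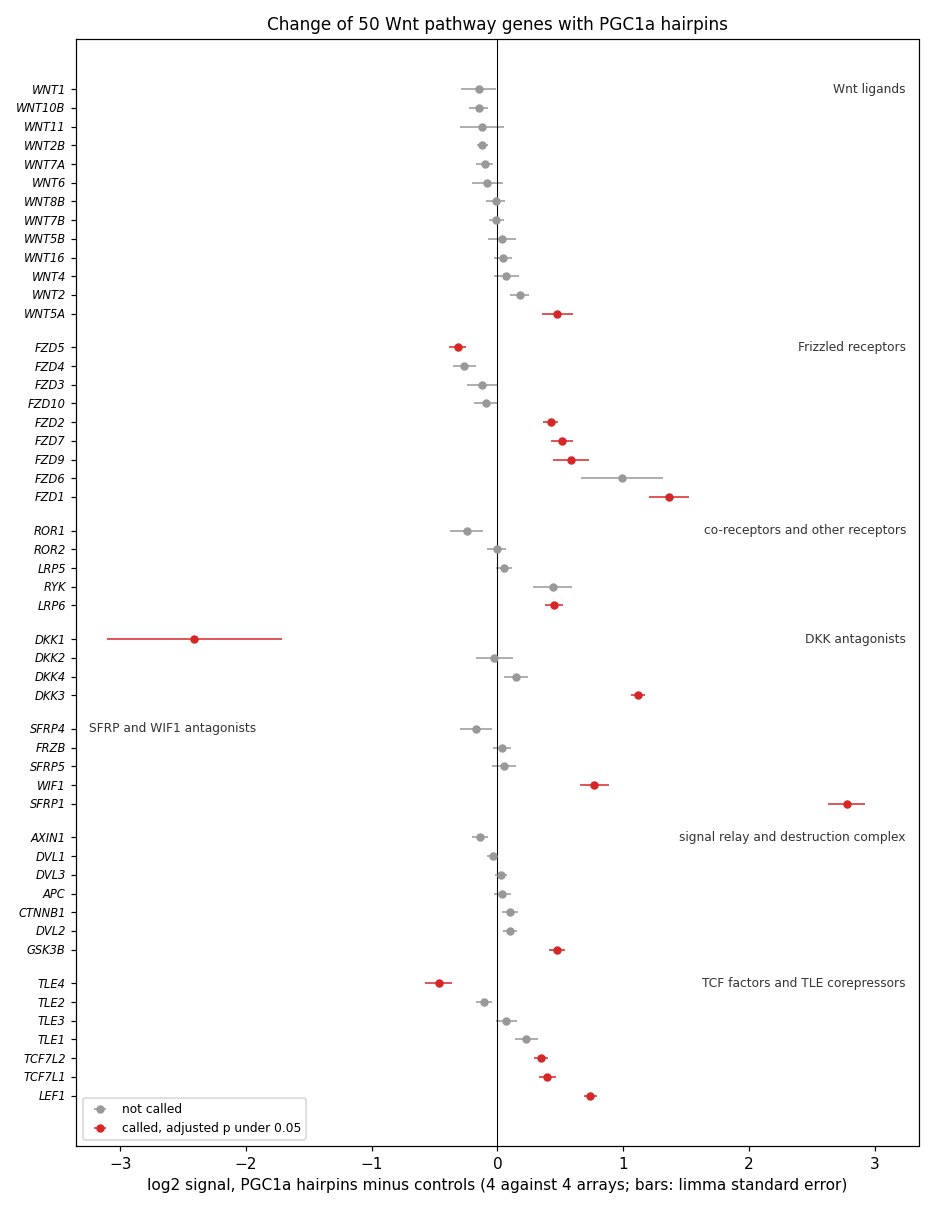
Change of the 50 measured Wnt genes, grouped by role, as log2 signal of the 4 PGC1α hairpin arrays minus the 4 control arrays, with limma standard errors as bars and called genes in red. SFRP1 lies furthest to the right at 2.78, and DKK1, at -2.41, has the widest bar.

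LEF1 and the TCF proteins, of which LEF1, TCF7L1 and TCF7L2 rose, read a short core, TCAAAG, in the DNA of their targets. The 250 bases before the start site were read for 37 of the 50 genes from RefSeq (build GRCh38.p14) and searched for this core on both strands (CTTTGA on the other). Of the 37, DKK1 and TLE4 held it (2 genes, 5.41%), against 8.63% of the same windows of 9563 array genes and 11.4% of 27305 in the whole table. The windows of these 37 genes were richer in G and C than those of array genes (median 71.6% against 63.6%). FZD5, the other gene that fell, did not hold the core. Windows were read for 11 of the called genes, and 2 of these held it. Those of SFRP1, DKK3, FZD2, FZD7 and LRP6, which rose, were not read. The windows of DKK1 and TLE4, which hold the core, and of FZD1 and LEF1, as examples that lack it, are shown 5′ to 3′ on the gene's strand, with the core in capitals.
DKK1: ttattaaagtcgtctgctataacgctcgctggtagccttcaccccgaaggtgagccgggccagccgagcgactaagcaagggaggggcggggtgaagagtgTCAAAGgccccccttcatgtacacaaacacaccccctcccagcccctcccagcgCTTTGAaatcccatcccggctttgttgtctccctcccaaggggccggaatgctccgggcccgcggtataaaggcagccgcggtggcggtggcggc
TLE4: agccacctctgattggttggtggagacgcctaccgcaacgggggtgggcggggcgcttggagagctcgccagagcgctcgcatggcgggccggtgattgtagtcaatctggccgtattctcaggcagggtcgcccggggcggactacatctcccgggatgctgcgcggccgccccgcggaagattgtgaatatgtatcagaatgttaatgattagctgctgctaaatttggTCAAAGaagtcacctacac
FZD1: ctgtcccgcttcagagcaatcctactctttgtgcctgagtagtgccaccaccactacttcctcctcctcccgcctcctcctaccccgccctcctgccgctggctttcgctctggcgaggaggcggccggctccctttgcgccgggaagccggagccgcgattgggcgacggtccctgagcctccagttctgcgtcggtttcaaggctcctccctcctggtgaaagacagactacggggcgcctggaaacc
LEF1: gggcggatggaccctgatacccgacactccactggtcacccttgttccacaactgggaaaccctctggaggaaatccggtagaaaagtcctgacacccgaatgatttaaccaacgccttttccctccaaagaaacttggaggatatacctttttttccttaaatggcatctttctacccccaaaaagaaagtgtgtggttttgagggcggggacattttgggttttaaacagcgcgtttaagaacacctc
The DKK1 window (chr10:52314031-52314280, plus strand) holds the core 149 bases before the start on the gene's strand and 95 bases before it on the other. TLE4 (chr9:79571715-79571964, plus strand) holds it once, 19 bases before the start. The windows of FZD1 (chr7:91264183-91264432, plus strand) and LEF1 (chr4:108166302-108166551, minus strand) hold none. AAGGTCA, the site read by ERRα, a nuclear receptor that PGC1α coactivates, was found in 1 of the 37 windows, that of WNT16, which was not called, and in 2.25% of those of array genes (TGACCTT on the other strand). A match of letters is a description and not evidence of binding.

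DKK1, a secreted antagonist that binds LRP5 and LRP6, had signals of 383 and 346 with shGFP, 42.4 and 48.3 with shScr, 27.1 and 18.7 with hairpin 65, and 24.0 and 27.6 with hairpin 66. The shGFP arrays stood far above the other 6, and both shScr arrays lay above all 4 knockdown arrays. Against all controls DKK1 fell 5.33-fold (log2 SE 0.70, adjusted p = 0.0331), and the control arm, at 205 ± 185 (SD, n = 4), was split by hairpin. Against shScr alone it fell 1.88-fold (adjusted p = 0.00468), and against shGFP alone 15.1-fold (adjusted p = 3.35e-06). The knockdown signals are dim, and no detection calls show whether they are at background, so the folds depend on the offset. With log2(signal + 50) the log2 change was -1.42 against all controls and -0.36 against shScr. The call against all controls was lost without either shGFP array, without any 1 of the 4 knockdown arrays (adjusted p 0.0647 to 0.0888 over these 6), and with that offset (0.0705). Over 20 alternatives its adjusted p ranged from 2.22e-06 to 0.563.

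DKK3, a Dickkopf relative whose link to Wnt signalling is less settled, had signals of 65.3 and 63.7 with shGFP, 66.7 and 66.6 with shScr, 149.6 and 144 with hairpin 65, and 146 and 131 with hairpin 66. Here both controls lay together and the knockdown arrays formed a separate group, 2.17-fold higher (log2 SE 0.06, adjusted p = 2.13e-06). Its other 4 probe sets were dim, with mean signals from 13.7 to 19.3 and log2 changes from -0.08 to 0.46. DKK2 and DKK4 did not pass (log2 changes -0.03 and 0.15, adjusted p = 0.934 and 0.315), both with probe sets in the lowest 15% of mean signal.

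SFRP1, a soluble protein with a Frizzled-like domain that binds Wnt ligands, had signals of 97.2 and 93.1 with shGFP, 144 and 142 with shScr, 797 and 721 with hairpin 65, and 841 and 847 with hairpin 66. The dimmest knockdown array stood far above the brightest control, and the controls differed a little between hairpins. The rise was 6.87-fold against all controls (log2 SE 0.15), 8.41-fold against shGFP and 5.61-fold against shScr (adjusted p = 3.00e-06, 3.14e-07 and 1.92e-06). All 3 SFRP1 probe sets moved alike, with log2 changes of 2.51, 2.61 and 2.78. WIF1, which also binds Wnt ligands, was dim, at 17.3 and 14.9 with shGFP, 19.8 and 18.9 with shScr, 24.9 and 32.3 with hairpin 65, and 34.7 and 29.2 with hairpin 66. Its arms did not overlap and it rose 1.70-fold (adjusted p = 0.00124), with a log2 change of 0.77 that was 0.24 with log2(signal + 50). FRZB, SFRP4 and SFRP5 did not pass, with log2 changes from -0.17 to 0.05.

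**Figure D2:**
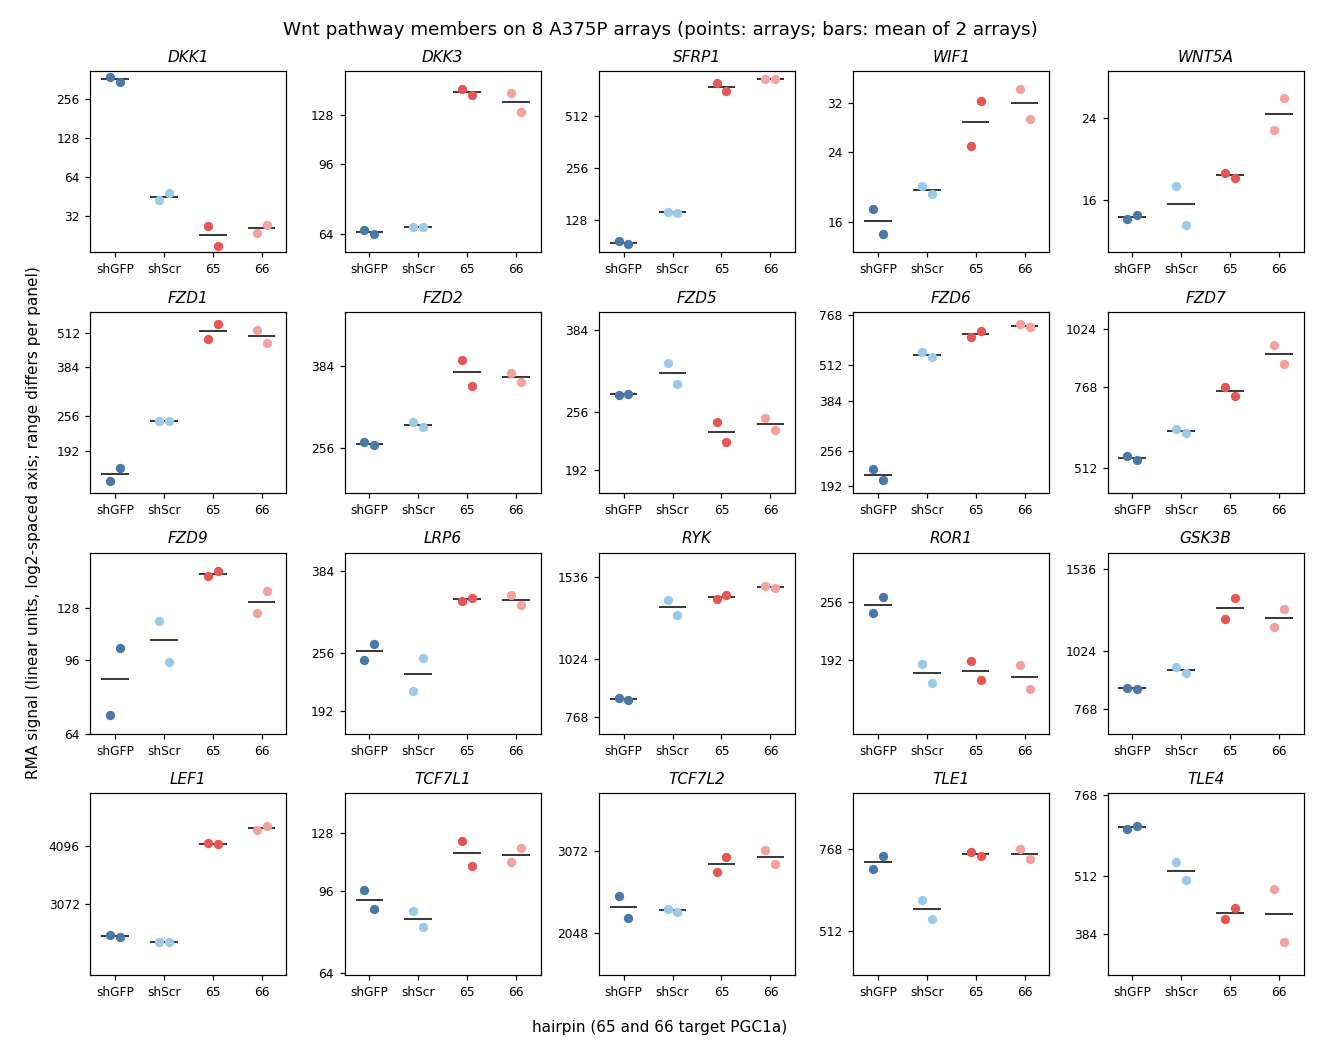
RMA signal (linear units on a log2-spaced axis whose range differs per panel) of the 20 Wnt genes called with the PGC1α hairpins or between the control hairpins, with 1 point per array and a bar at the mean of each hairpin's 2 arrays. DKK1 is highest in shGFP, SFRP1 lies between 721 and 847 in the knockdown, and FZD6 and RYK are low in shGFP only.

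All 13 measured Wnt ligands had probe sets below the median signal of all genes, with arm means between 15.1 and 164, and no detection calls came with the data. WNT5A was the 1 ligand that rose, from 14.5 and 14.8 with shGFP and 17.1 and 14.1 with shScr to 18.3 and 17.8 with hairpin 65 and 22.6 and 26.4 with hairpin 66. The arms did not overlap, but the hairpin 65 arrays lay close to the highest control array. The rise was 1.39-fold (log2 SE 0.12, adjusted p = 0.0214), and a second probe set gave a log2 change of 0.32. With hairpin 66 the log2 change was 0.69 (adjusted p = 0.00187) and with hairpin 65 it was 0.26 (adjusted p = 0.0930), and the test between the 2 hairpins did not pass (adjusted p = 0.587). The call was lost without shGFP replicate 1 (0.0547), shScr replicate 2 (0.0503) or hairpin 66 replicate 1 (0.0636), in a range of adjusted p from 0.00717 to 0.319 over 20 alternatives. The other 12 ligands had log2 changes from -0.15 to 0.18, with adjusted p of 0.0896 or more.

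Among the Frizzled receptors, FZD1 changed most, with signals of 149 and 166 with shGFP, 245 and 246 with shScr, 486 and 551 with hairpin 65, and 525 and 472 with hairpin 66. The 2 controls differed, and every knockdown array was well above both. FZD1 rose 2.58-fold against all controls (adjusted p = 0.00026) and 2.07-fold against shScr (adjusted p = 0.000135), and its second probe set had a log2 change of 0.69. FZD7 signals were 544 and 534 with shGFP, 623 and 611 with shScr, 768 and 734 with hairpin 65, and 944 and 861 with hairpin 66. All knockdown arrays were above all controls, and FZD7 rose 1.43-fold (adjusted p = 0.00284), while its other probe set, nearly as bright, had a larger log2 change of 0.85.

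FZD2 signals were 264 and 259.8 with shGFP, 291 and 284 with shScr, 397 and 349 with hairpin 65, and 371 and 356 with hairpin 66. The controls were close together and below all knockdown arrays, and FZD2 rose 1.34-fold (adjusted p = 0.00104). FZD9 signals were 70.9 and 102 with shGFP, 119 and 95.1 with shScr, 152 and 156 with hairpin 65, and 125 and 140.1 with hairpin 66. The gap between its arms was small, at 119 against 125. FZD9 rose by 0.59 on the log2 scale against all controls (SE 0.14, adjusted p = 0.0157) and had a log2 difference of 0.43 from shScr that did not pass (adjusted p = 0.0965). Without hairpin 65 replicate 2 its call was lost (adjusted p = 0.0506, range 0.00589 to 0.650 over 21 alternatives).

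FZD5 was the 1 Frizzled that fell. Its signals were 278 and 280.2 with shGFP, 326 and 295 with shScr, 244 and 221 with hairpin 65, and 248 and 234 with hairpin 66. The arms did not overlap, and FZD5 fell by 0.32 on the log2 scale (SE 0.07, adjusted p = 0.00736). Its second probe set, used when s_at and x_at probe sets were dropped, had a log2 change of -0.20 that did not pass (adjusted p = 0.0600), and without hairpin 65 the call was lost (0.0703), in a range of 0.00337 to 0.112 over 21 alternatives. FZD3, FZD4 and FZD10 did not pass (log2 changes -0.12, -0.26 and -0.09).

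FZD6, which is also tied to planar cell polarity, had signals of 219.9 and 201 with shGFP, 569 and 547 with shScr, 643 and 675 with hairpin 65, and 712 and 695 with hairpin 66. The arms did not overlap, yet the shScr arrays lay nearer to the knockdown than to shGFP. Against all controls the log2 difference was 0.99 (SE 0.33) and did not pass (adjusted p = 0.0562). It passed without either shScr array (adjusted p = 0.0172 and 0.0221, range 2.53e-06 to 0.561 over 21 alternatives). In the fit with 4 groups FZD6 was higher than shGFP by 3.24-fold (adjusted p = 2.73e-06) and higher than shScr by 1.22-fold (adjusted p = 0.0131). The comparison with shScr did not pass without shScr replicate 1 (adjusted p = 0.0608) or replicate 2 (0.112), in a range of 0.00183 to 0.112 over 15 alternatives.

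LRP6, a co-receptor and the target of DKK1, had signals of 248 and 268 with shGFP, 212 and 249.6 with shScr, 331 and 337 with hairpin 65, and 341 and 324 with hairpin 66. The 4 knockdown arrays were tight and all above the controls. LRP6 rose 1.37-fold (adjusted p = 0.00169), and its second probe set had a log2 change of 0.41. LRP5 had a log2 change of 0.05 (adjusted p = 0.637).

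RYK, a receptor of the β-catenin-independent branch, had signals of 842 and 833 with shGFP, 1371 and 1271 with shScr, 1378 and 1405 with hairpin 65, and 1467 and 1452 with hairpin 66. Only the shGFP arrays were low. RYK did not pass against all controls (log2 0.44, adjusted p = 0.0768) but passed without shScr replicate 1 (0.0179) or shScr replicate 2 (0.0439), in a range of 4.98e-05 to 0.663 over 20 alternatives. ROR1, a receptor for WNT5A, showed the opposite, with 242 and 262 in shGFP, 189 and 171 in shScr, 191 and 174 with hairpin 65, and 188 and 166 with hairpin 66. The knockdown arrays overlapped those of shScr, and the log2 difference from shScr was -0.0015. A second ROR1 probe set had a log2 change of 0.21 against all controls where the one used had -0.25, and neither passed. ROR2 had a log2 change of -0.01.

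Of the 7 measured relay and destruction complex genes, GSK3B, the kinase that marks β-catenin, was the 1 that rose. Its signals were 851 and 848 with shGFP, 944 and 916 with shScr, 1197 and 1332 with hairpin 65, and 1154 and 1258 with hairpin 66. The controls lay below all knockdown arrays, and the rise was 1.39-fold (log2 SE 0.06, adjusted p = 0.000576). CTNNB1, which encodes β-catenin, had signals of 6933 and 6489 with shGFP, 5911 and 6020.1 with shScr, 6477 and 7036 with hairpin 65, and 7069 and 6513 with hairpin 66. These overlapped, and its log2 change of 0.10 (SE 0.07) did not pass (adjusted p = 0.343). AXIN1, APC, DVL1, DVL2 and DVL3 had log2 changes from -0.14 to 0.10 and did not pass.

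LEF1, a DNA-binding partner of β-catenin, had signals of 2631 and 2615 with shGFP, 2546 and 2543 with shScr, 4153 and 4137 with hairpin 65, and 4448 and 4527 with hairpin 66. Both controls lay within a narrow band and the knockdown arrays well above it. LEF1 rose 1.67-fold (log2 SE 0.05, adjusted p = 1.34e-05), and its call held in all 20 alternatives that could be run on it. A second of its 3 probe sets had a log2 change of 0.74 and the third, the dimmest, 0.11.

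TCF7L2, a further partner of β-catenin, had signals of 2457 and 2201 with shGFP, 2309.7 and 2267 with shScr, 2775 and 2989 with hairpin 65, and 3088 and 2884 with hairpin 66. All knockdown arrays were higher, and TCF7L2 rose 1.27-fold (adjusted p = 0.00189). Its 6 probe sets had log2 changes from 0.23 to 0.37. TCF7L1, which acts mostly as a repressor, had signals of 96.3 and 87.8 with shGFP, 87.0 and 80.2 with shScr, 123 and 109 with hairpin 65, and 111 and 119 with hairpin 66. The highest control was below the lowest knockdown array, and the rise was 1.32-fold (adjusted p = 0.00268).

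TLE4, a corepressor, had signals of 649 and 657 with shGFP, 549 and 504 with shScr, 415 and 438 with hairpin 65, and 481 and 369.6 with hairpin 66. Its arms did not overlap, and shScr lay between shGFP and the knockdown. TLE4 fell 1.38-fold (adjusted p = 0.0109), with a log2 difference of -0.31 from shScr alone that did not pass (adjusted p = 0.0765). The mean of its 3 probe sets, which ranged in log2 change from -0.47 to 0.01, did not pass (adjusted p = 0.106, range 0.00268 to 0.126 over 21 alternatives). TLE1 signals were 696 and 743 with shGFP, 597 and 543 with shScr, 759 and 743 with hairpin 65, and 767 and 729.6 with hairpin 66. The knockdown overlapped shGFP and lay above shScr, with a log2 change of 0.23 against all controls (adjusted p = 0.114). Without shGFP replicate 2 it passed (adjusted p = 0.0356, range 0.00364 to 0.631 over 21 alternatives). TLE2 and TLE3 did not pass (log2 changes -0.11 and 0.07).

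**Figure D3:**
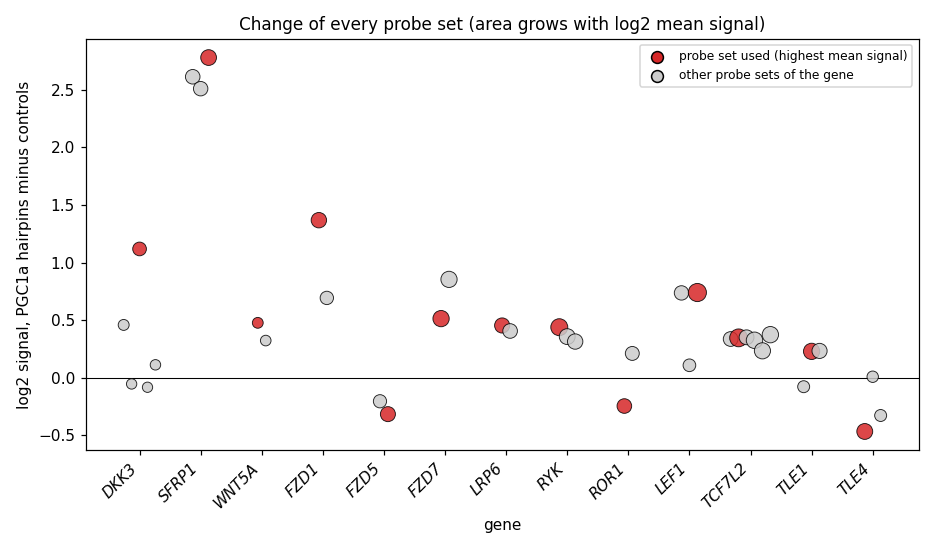
Log2 change with the PGC1α hairpins (vertical axis) of every probe set of the genes called with the PGC1α hairpins or between the controls that have more than 1, with the probe set used in red, others in grey and dot area growing with log2 mean signal. The SFRP1 and TCF7L2 probe sets lie close together, those of DKK3 spread from -0.08 to 1.12, and those of ROR1 lie on both sides of 0.

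Between the control hairpins, 7 of the 50 Wnt genes differed, 3 higher and 4 lower in shGFP, against 7.85% of all genes, 4.4% higher and 3.45% lower. DKK1, TLE1 and ROR1 were higher in shGFP and SFRP1, FZD1, FZD6 and RYK lower. That DKK1 differs here was known when the comparison was chosen. Its call is therefore no support for the count of 7, and its values and rank are a description. The DKK1 difference, 8.05-fold (log2 3.01, SE 0.17), was the largest of all 11963 genes, and that of FZD6, 2.65-fold (log2 -1.41, SE 0.07, adjusted p = 0.000127), ranked 11. RYK was 1.58-fold (adjusted p = 0.00109), and FZD1 1.56-fold (adjusted p = 0.00623) lower in shGFP, and the log2 difference of SFRP1 was -0.58 (adjusted p = 0.00266). ROR1 was 1.40-fold (adjusted p = 0.0199) and TLE1 1.26-fold (adjusted p = 0.0314) higher there. Leaving out a control array leaves 1 for that hairpin, which is then assumed to vary like the arrays of the other hairpins. Without shGFP replicate 1 the log2 differences of FZD1, ROR1 and TLE1 were -0.56, 0.55 and 0.39, and their calls did not hold. ROR1 lost its call without any 1 of the 4 control arrays (0.0519 to 0.125, range 0.00285 to 0.126 over 15 alternatives). TLE1 did so too (0.0614 to 0.186), and without either hairpin 65 array (0.0516) with the mean of its probe sets (0.126) and with the replicate block (0.0515), in a range of 0.00248 to 0.186 over 15 alternatives.

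Set against each control by itself, the same 4 knockdown arrays gave 21 called Wnt genes with shGFP, 15 higher and 6 lower, where 27.7% of all genes were called, 14.1% higher and 13.6% lower. With shScr there were 16, 14 higher and 2 lower, where 20.4% were called, 11.3% higher and 9.17% lower. DKK3, LEF1 and TCF7L2 had nearly the same log2 difference from either control (1.14 and 1.09, 0.72 and 0.76, 0.33 and 0.36). For TCF7L2 this held for the probe set used, while its other probe sets were lower in shGFP than in shScr, by log2 differences from -0.39 to -0.12. For RYK the pair was 0.77 from shGFP (adjusted p = 5.44e-05) and 0.11 from shScr (adjusted p = 0.201). For TLE1 it was 0.06 from shGFP (adjusted p = 0.543) and 0.40 from shScr (adjusted p = 0.00405). FZD4 and WNT10B were lower than shGFP (log2 -0.41 and -0.22, adjusted p = 0.00953 and 0.0146) and did not pass against shScr (log2 -0.12 and -0.08). Leaving out shScr replicate 2 leaves 1 shScr array. The log2 differences from it were 0.34 for FZD2, 0.26 for FZD6 and 0.41 for TCF7L1. They were 0.34 for TCF7L2, 0.60 for WIF1 and 0.29 for WNT5A, and the calls of these genes did not hold there.

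**Figure D4:**
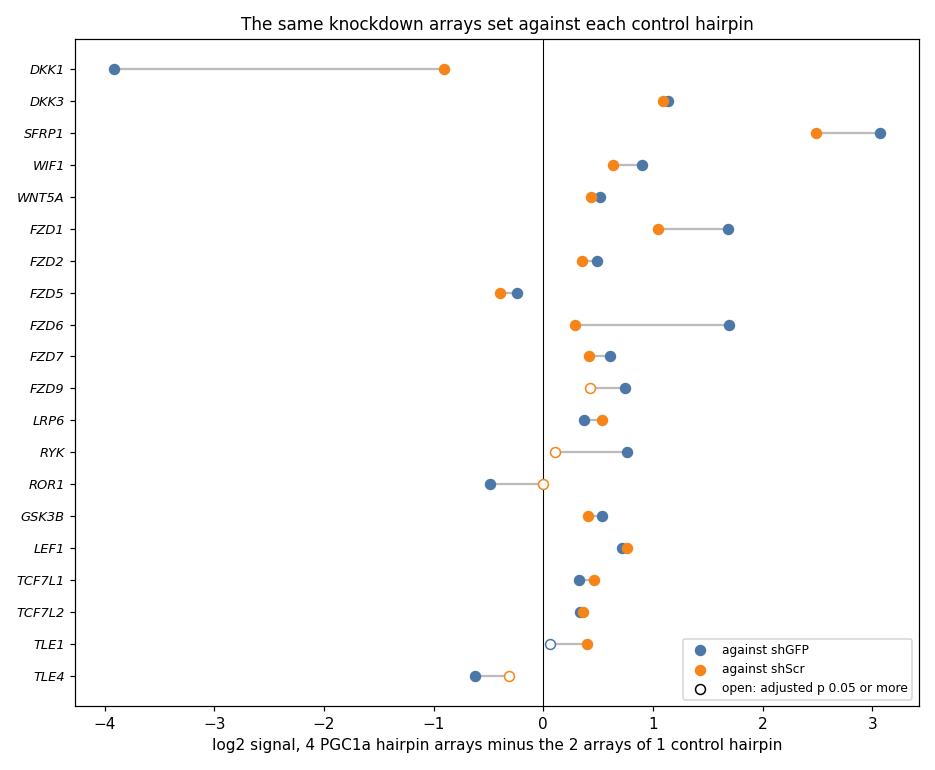
Log2 difference of the 4 PGC1α hairpin arrays from the 2 shGFP arrays (blue) and from the 2 shScr arrays (orange) for the 20 called Wnt genes, with open circles where adjusted p was 0.05 or more. DKK1 spans -3.92 to -0.91 and FZD6 0.29 to 1.69, while the 2 points of DKK3, LEF1 and TCF7L2 nearly coincide.

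Each hairpin against the controls called 19 of the 50 Wnt genes, 15 higher and 4 lower. Hairpin 65 called 23.4% of all genes, 13% higher and 10.4% lower, and hairpin 66 called 22.1%, 11.2% higher and 10.9% lower. The 2 comparisons share the control arrays. SFRP1 had log2 changes of 2.70 with hairpin 65 and 2.86 with hairpin 66, LEF1 of 0.68 and 0.80, and FZD7 of 0.38 and 0.64. Between hairpins 65 and 66, limma called 0 of the 50 Wnt genes and 0 of all genes, with 5 and 849 at an unadjusted p under 0.05, and a fit with trend and robust variance called 0 as well.

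Further pathway genes were counted from 5 lists, to be read against the 22.2% of all genes called (11.6% higher, 10.7% lower). All called genes ranged from 529 to 3099 over the alternatives. The 22.2% is therefore no measure for a list count under another setting. A list count that moves with the setting is not by itself a result about the list. Of 13 measured genes of Wnt secretion and the cell surface, 3 rose and 2 fell (median log2 change 0.01), and without shScr 3 rose and 5 fell. PTK7, a pseudokinase receptor, rose 1.65-fold (83.9 ± 10.9 to 137 ± 7.05, SD, n = 4 in each arm, adjusted p = 0.000542), and WLS, the carrier that takes Wnt proteins to the surface, fell 1.45-fold (1317 ± 134 to 903 ± 47.6, adjusted p = 0.000952). Among 24 genes of the cytoplasmic relay, 3 rose and 1 fell (median 0.06), with the GSK3-binding proteins FRAT1 1.49-fold higher (adjusted p = 0.000207) and FRAT2 1.29-fold lower (adjusted p = 0.00257). Of these 24, 8 were called with log2(signal + 50) and 7 with trend and robust variance. Without hairpin 65, 2 were called, where 1387 of 11963 genes were. Of 20 nuclear partners of β-catenin, 1 rose, TBL1X (1.29-fold), and 2 fell, TBL1XR1 (1.28-fold) and TLE5 (1.19-fold), with a median of 0.02, and 5 were called with log2(signal + 50) or, of 18 left, without the dimmest 40% of genes. TBL1X and TBL1XR1 encode closely related exchange factors, and TLE5 was named after its value was seen.

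Of 38 genes often named as Wnt targets, 10 rose and 5 fell, where 22.2% of all genes were called, with a median log2 change of 0.03. MYC, a growth-promoting transcription factor, fell 1.77-fold (1280.3 ± 33.1 to 723 ± 21.1, SD, n = 4 in each arm, adjusted p = 4.07e-06). PLAUR, the urokinase receptor, rose 3.34-fold (414 ± 80.9 to 1366 ± 45.3, adjusted p = 1.40e-05) and also differed between the controls (adjusted p = 0.00491). From a probe set without an s_at or x_at suffix the log2 change was 0.38 (adjusted p = 0.00541). Of the 38, 8 were called without hairpin 65 and 7 without hairpin 66, where 1387 and 1467 of 11963 genes were. These genes answer to other pathways too. Of 31 genes of the planar polarity and calcium branches, 6 rose and 3 fell (median -0.04), with the kinase PRKCA 1.64-fold and the calcineurin subunit PPP3CA 1.65-fold higher (adjusted p = 5.59e-05 and 0.000103). Without hairpin 65 or without hairpin 66, 4 of these 31 were called, all higher, beside the same 1387 and 1467 genes. With the ACTB measure as a covariate, 6 of the 38 target genes and 2 of these 31 were called, where 529 of 11963 genes were. It left 4 of the 13 secretion and surface genes called, 1 of the 24 relay genes and 0 of the 20 nuclear partners.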

How the data were processed

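RNA was hybridized to 8 1-colour Affymetrix arrays. The authors deposited 1 linear intensity for each of 22277 probe sets and array, from RMA (a method that normalizes across arrays) per the submitters' processing notes, with its version not given in the sources used here. Median signal per array lay between 137 and 142. Tests used log2 of these intensities, and folds are ratios of geometric means. The array's probe table gives 1 symbol to 19070 probe sets, several to 1043 and none to 2164, and 0 symbols changed against RefSeq. A gene was read from its probe set of highest mean (11963 genes), without a filter, and signals of different probe sets are not compared as levels. The comparison of 4 against 4 arrays is a limma fit with 2 groups (limma 3.58.1, R 4.3.3, 6 residual degrees of freedom). All others come from a fit with 4 groups (4 degrees). Benjamini-Hochberg adjustment ran over the whole gene table, and calls are at 0.05, to which "rose" and "fell" refer. The fits were run on simulated data with the spread found within hairpins. Those data held no differences between hairpins of an arm, so they do not check the comparison of 4 against 4 arrays in that respect. Values per array are given for PPARGC1A, for Wnt genes called against all controls or between the controls, and for the 5 with the brightest probe sets. Alternatives changed the choice of probe sets, the filter, the offset, the normalization, the variance model, the block or a covariate, or left out arrays or hairpins. From each further list the 2 called genes with the smallest p are named. Others were named after their values were seen. Members, lists and rules were chosen with earlier results of these data known. Same-numbered arrays did not deviate together (correlations from -0.11 to 0.04 over 6 pairs of hairpins), so the numbers were not taken as pairs.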

Additional observations from a re-analysis of the deposited data

Results flagged for a closer look

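Of 64 sets of 4 arrays examined for a single far value (the control and knockdown arms of the genes described), 1 stood out, and about 1 in 20 would by chance. PTK7 had a signal of 127 on hairpin 65 replicate 2, where the other knockdown arrays lay between 139 and 142, so that the gap took up 0.838 of the arm's range.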

How the results depend on the processing

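Over the 21 alternatives to the comparison with all controls, 0 called Wnt genes changed direction while called, and SFRP1, LEF1 and TCF7L1 were called in all that could be run on them (20, 20 and 19). The called Wnt genes numbered 9 when s_at and x_at probe sets were dropped (38 genes left) and 4 with the ACTB difference as a covariate. All called genes numbered 1601 of 8371 and 529 of 11963 there, and 1387 without hairpin 65 and 1467 without hairpin 66. Dropping s_at and x_at probe sets left 4 Wnt genes and 555 genes between the controls, 10 and 1601 for hairpin 65, 10 and 1549 for hairpin 66, 12 and 1993 against shGFP, and 9 and 1379 against shScr. Of the further lists it left 2 of 8 secretion and surface genes called, 1 of 14 nuclear partners and 6 of 27 targets. It used a dim probe set for DKK3 (log2 -0.054, adjusted p = 0.784), and for ROR1 against shScr the second one (log2 0.39, adjusted p = 0.0353). Between the controls, 1535 genes were called once the dimmest 40% were left out, 1543 with log2(signal + 50) and 1705 with trend and robust variance. Leaving out each array in turn gave, in Wnt genes and in all genes, 14 to 18 and 2104 to 2489 against all controls, 4 to 7 and 374 to 847 between the controls, 13 to 19 and 1798 to 2713 for hairpin 65, 15 to 19 and 1742 to 2572 for hairpin 66, 16 to 22 and 2058 to 3092 against shGFP, and 10 to 17 and 1173 to 2131 against shScr. With the replicate block, whose numbers do not pair the samples, 15 Wnt genes were called against all controls, without DKK1 (adjusted p = 0.0510). For PPARGC1A the log2 change ranged from -2.23 to -1.80 over 11 alternatives. No detection calls were used, so whether a dim probe set such as those of WNT5A and WIF1 is at background is unknown. With log2(signal + 50) WNT5A did not pass (log2 0.13, adjusted p = 0.0590).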
